A study of Mus musculus with 8 samples.

Results

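A group of 9 genes of the interleukin-12, interleukin-6, interleukin-10 and interleukin-15 systems were read across CMA-stimulated macrophages that differ in the STING protein they carry: Il12a, Il12b, Il23a, Il27, Ebi3, Il6, Il10, Il15 and Il15ra. They were taken by symbol from a deposited table of 53715 genes, and all 9 of 9 have a row in it. Poly(A) RNA of Sting-/- mouse macrophages was sequenced after 4 h with CMA at 500 µg/ml in every library, and CMA (10-carboxymethyl-9-acridanone) is an agonist of mouse STING. STING is the adaptor that reports cytosolic DNA and cyclic dinucleotides, and its C-terminal tail is the segment that docks its downstream kinase. The 4 groups hold 2 libraries each: no_transgene received no STING, mSTING stably expresses mouse STING, dCTT stably expresses the label's mSTING-dCTT, a mouse STING without its tail, and zfCTT stably expresses mSTING-zfCTT, a mouse STING with the tail of the zebrafish protein. The titles of the no_transgene libraries name MSCV where the other titles name the STING form. The transgene label of the no_transgene libraries reads none. All groups share the Sting deletion, and no unstimulated library was analysed here. The labels do not say what promoter drives the transgene or whether a line is a clone or a pool, and they do not say that the pair of libraries of a group came from separate dishes, so p-values measure a spread that may be technical.

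The IL-12 family cytokines are heterodimers that share chains. IL-12 joins the Il12a and Il12b products, IL-23 joins Il23a with the same Il12b chain, and IL-27 joins the Il27 product with Ebi3. Macrophages and dendritic cells secrete them after innate sensing, and they steer T and NK cells. IL-6 drives the acute-phase response, IL-10 restrains macrophage activation, and IL-15 is carried to NK and memory CD8 T cells bound to the alpha chain of its receptor, the Il15ra product, on the cell that made it.

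Levels are RPKM, reads per kilobase of exon scaled to library size, which allow comparison between genes. Differences are log2 fold changes of RPKM + 1 with the standard error (SE) of a limma fit over all tested genes, and adjusted p is the Benjamini-Hochberg value over those genes, with 0.05 as the threshold. On this scale the change of a gene with low values comes out too small. Recovered depth was 20.1 to 171 M reads, and the 2 zfCTT libraries, at 20.1 and 34.8 M, lay among the 3 shallowest. Tmem173, the STING gene, was at 3.23 and 2.42 RPKM without a transgene and at 10.6 to 22.7 in the 6 transgenic libraries, in the order the labels call for. Of 8 macrophage markers, 7 reached 1 RPKM, with a summed level of 964.7 to 1144 in no_transgene, 539.2 to 767.2 in mSTING, 838.5 to 891.4 in dCTT and 625.2 to 806.3 in zfCTT. None of the markers of dendritic cells (6 listed), T cells (6), B cells (5), NK cells (4), neutrophils (5) or fibroblasts (4) reached 1 RPKM in any library, and Cd3e, Cd8a, Ncr1, Gzma, Ly6g, Dcn and Col1a2 were listed at 0 in all 8.

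Among the 9 genes, the changes lay in zfCTT, and they were unequal. Il12b went from 0 to 2 reads in the other 6 libraries to 5.20 and 7.01 RPKM in zfCTT, and Il27 rose 21.4-fold over no_transgene. Ebi3, Il15 and Il15ra were 2.14-fold, 6.24-fold and 2.35-fold higher in zfCTT than in no_transgene without passing the threshold, and the value for Il15 was 3.78-fold without zfCTT replicate 1. Il12a was at 0 reads throughout, and Il6, Il10 and Il23a stayed under 0.2 RPKM in all 8 libraries. In these bulk samples, a change in the share of cells that make a transcript and a change in the amount per cell cannot be told apart.

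**Figure D1:**
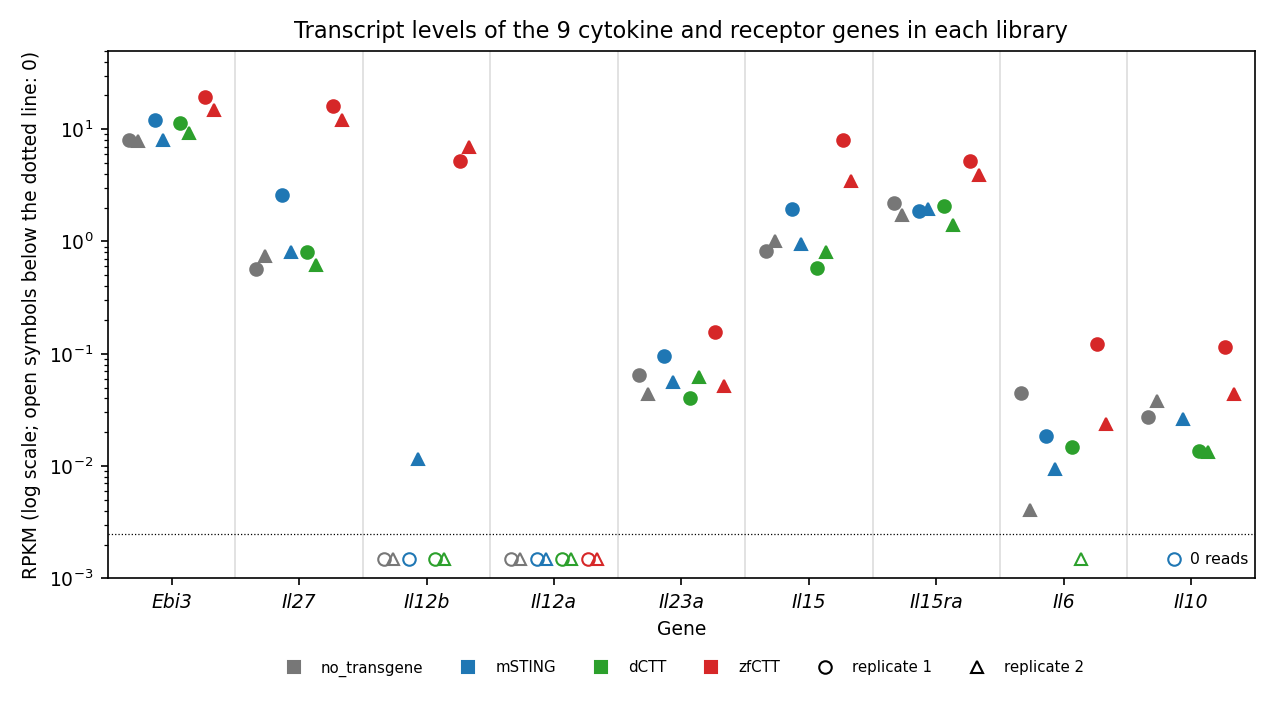
RPKM on a log scale for the 9 genes in each of 8 libraries, coloured by group, with circles for replicate 1 and triangles for replicate 2, and open symbols under the dotted line for a value of 0. Il12b is at 5.20 and 7.01 in zfCTT and at 0 or 0.0115 elsewhere, while Il12a is at 0 in all 8 libraries.

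The bases just before the start are shown for Il12b, the gene with the widest gap between zfCTT and the rest, for Ebi3, a partner chain already present without a transgene, and for Il6, which stayed near 0. All 3 lie on the plus strand of GRCm38.p6 and are 250 bases long, from RefSeq starts: Il12b at chr11:44399813-44400062, Ebi3 at chr17:55952373-55952622 and Il6 at chr5:30012864-30013113. Capitals mark matches, on either strand, to the motifs searched.
Il12b: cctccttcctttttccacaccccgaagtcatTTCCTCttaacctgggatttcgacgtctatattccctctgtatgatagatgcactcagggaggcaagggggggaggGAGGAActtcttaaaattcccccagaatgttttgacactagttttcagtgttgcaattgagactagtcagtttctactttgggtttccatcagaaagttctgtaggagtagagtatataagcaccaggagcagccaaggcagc
Ebi3: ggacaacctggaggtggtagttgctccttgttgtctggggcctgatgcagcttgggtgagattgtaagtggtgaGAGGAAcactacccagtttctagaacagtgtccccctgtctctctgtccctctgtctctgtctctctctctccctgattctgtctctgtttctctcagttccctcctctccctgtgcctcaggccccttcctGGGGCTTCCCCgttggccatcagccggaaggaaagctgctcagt
Il6: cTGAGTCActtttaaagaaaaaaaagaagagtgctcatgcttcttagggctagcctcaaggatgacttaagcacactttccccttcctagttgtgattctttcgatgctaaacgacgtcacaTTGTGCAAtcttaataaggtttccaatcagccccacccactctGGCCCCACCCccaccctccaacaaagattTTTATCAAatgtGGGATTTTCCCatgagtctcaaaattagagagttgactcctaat

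The motifs searched were the NF-κB consensus, a looser form of it (GGG and CC with any 5 bases between), the interferon-response core (GAAA, any 2 bases, GAAA), the AP-1 site TGANTCA, the C/EBP half-palindrome TTNNNCAA, the PU.1 core GAGGAA and TATAAA. The looser NF-κB form overlaps the consensus, so that 1 stretch can count for both. Ebi3 and Il6 each held the NF-κB consensus at bases -44 to -35 from the start, as GGGGCTTCCC and GGGATTTTCC, and 3.9% of the 32851 RefSeq promoter windows of this length hold it. Il12b had no match to either NF-κB pattern searched in this window. Sites for any of these factors that are spelled otherwise would be missed by such fixed patterns. Il12b had 2 PU.1 cores, TTCCTC at -219 to -214 and GAGGAA at -143 to -138, a motif found in 23.3% of windows. Il6 also had AP-1 at -249 to -243 (6.75% of windows) and C/EBP matches at -128 to -121 and -56 to -49 (33.3%). The interferon-response core (2.98% of windows) and TATAAA (12.4%) matched in none of the windows of these genes. Il12a and Il15ra have 2 RefSeq entries each, which are not shown. So the window of Il6, a gene near 0 in every library, held more of the motif kinds searched than that of Il12b, and these matches are a description of letters alone. Il27, Il15, Il10 and Il23a have no entry in the RefSeq promoter table.

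Il12b (ENSMUSG00000004296; GRCm38 chromosome 11, 44400063 to 44414033, plus strand) encodes the chain that IL-12 and IL-23 share. Its level was 0 in both no_transgene libraries, 0 and 0.0115 RPKM in mSTING, 0 in both dCTT libraries, and 5.20 and 7.01 RPKM in zfCTT, a mean of 6.11 ± 1.28 (SD, n = 2). In recovered reads this is 2 reads over the 6 other libraries against 205 and 480 in zfCTT. Both zfCTT libraries thus stood far above all others although they were shallow, and no library of the other groups reached the level that 3 reads would give. Counting 3 reads in each library at 0, Il12b was at least 174.3-fold higher in zfCTT than in no_transgene (at least 111-fold to at least 405.1-fold with 1 library left out). Against dCTT it was at least 336.5-fold higher (at least 222.9-fold to at least 686.2-fold). Against mSTING the ratio of read rates was 1101, with a 95% interval of 303.6 to 9109 that covers counting error alone.

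The limma fit called Il12b higher in zfCTT in all 3 comparisons: by 2.82 ± 0.18 (SE) over no_transgene with an adjusted p of 0.00443, by 2.82 ± 0.18 over dCTT with 0.00554, and by 2.81 ± 0.18 over mSTING with 0.0113. These fitted values depend on the pseudocount and are no estimate of the fold. Il12b passed the filter on low values through zfCTT alone, so a difference in these comparisons was built into its being tested. Without no_transgene replicate 1 its adjusted p against no_transgene was 0.0623, and without dCTT replicate 1 or 2 that against dCTT was 0.110 or 0.109. The call against mSTING was lost without mSTING replicate 1 or 2 (0.0742 and 0.0804), without dCTT replicate 1 or 2 (0.0550 and 0.0594), with a pseudocount of 0.1 (0.0968) and with the pair of groups fitted alone (0.147). Without either zfCTT library, Il12b reached 1 RPKM in 1 library and was not tested.

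Il12a (ENSMUSG00000027776; chromosome 3, 68690644 to 68698547, plus strand) encodes the chain that makes IL-12 out of the Il12b product. It had 0 reads in all 8 libraries, and 3 reads would have given 0.0880 and 0.0507 RPKM in the zfCTT libraries. Il12b in the same libraries was therefore present with no detectable Il12a at this depth. Il23a (ENSMUSG00000025383; chromosome 10, 128296139 to 128298752, minus strand), the other partner of Il12b, was at 0.0642 and 0.0440 RPKM in no_transgene, 0.0959 and 0.0555 in mSTING, 0.0400 and 0.0623 in dCTT, and 0.155 and 0.0512 in zfCTT. These are 4 to 24 reads per library, and the zfCTT libraries overlapped those of each other group. The ratio of Il12b to Il23a RPKM was 33.5 and 137 in the zfCTT libraries, from 7 and 4 reads of Il23a.

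Il27 (ENSMUSG00000044701; chromosome 7, 126589010 to 126594941, minus strand), the alpha chain of IL-27, was at 0.565 and 0.745 RPKM in no_transgene, 2.61 and 0.800 in mSTING, 0.809 and 0.611 in dCTT, and 16.0 and 12.0 in zfCTT. Recovered reads ran from 16 to 235 outside zfCTT and were 328 and 428 in zfCTT. The zfCTT libraries were above all 6 others, mSTING replicate 1 was the next highest, and the other 5 lay between 0.565 and 0.809. By group mean the order was zfCTT at 14.0, mSTING at 1.71, dCTT at 0.710 and no_transgene at 0.655 RPKM. Within that order dCTT lay across no_transgene and mSTING replicate 2 fell just under dCTT replicate 1, so those neighbours did not differ beyond their spread.

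Il27 rose in zfCTT over no_transgene by 3.17 ± 0.33 (adjusted p 0.0196), 21.4-fold in RPKM, and over dCTT by 3.13 ± 0.33 (adjusted p 0.0201), 19.8-fold. Against mSTING it was 8.23-fold higher in zfCTT, with a log2 difference of 2.55 ± 0.33, a 95% interval of 1.75 to 3.34 and an adjusted p of 0.0793, which misses the threshold. Leaving out mSTING replicate 1 gave 17.5-fold and leaving out replicate 2 gave 5.37-fold. In the comparison with no_transgene the log2 difference was 3.44 among the libraries numbered 1 and 2.90 among those numbered 2. Outside zfCTT only mSTING replicate 1 reached 1 RPKM, so Il27 also met the 2-library filter only through zfCTT, the group where it is high. With no filter its adjusted p was 0.0677 over no_transgene and 0.0762 over dCTT, and with limma-voom on recovered reads it was 0.0503 over no_transgene. The call over no_transgene was lost when any library of no_transgene (0.157 and 0.0703 for replicates 1 and 2), dCTT (0.0586 and 0.0608) or zfCTT (0.176 and 0.0553) was left out. That over dCTT was lost without either library of no_transgene (0.0542 and 0.0553) or dCTT (0.167 and 0.168) and without zfCTT replicate 1 (0.181). The exons of Il27 share 103 bases, 10.1% of their length, with Apobr on the opposite strand, and reads there cannot be told apart without a strand setting. Apobr itself was at 10.4 to 19.9 RPKM and differed by 0.25 ± 0.33 between zfCTT and no_transgene (adjusted p 0.792).

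Ebi3 (ENSMUSG00000003206; chromosome 17, 55952640 to 55957022, plus strand), the beta chain of IL-27, was the most abundant of the 9 genes in every library. It was at 8.01 and 7.92 RPKM in no_transgene, 12.1 and 8.09 in mSTING, 11.4 and 9.33 in dCTT, and 19.4 and 14.7 in zfCTT. The zfCTT libraries were the highest 2 of the 8, the no_transgene libraries the lowest 2, and mSTING and dCTT overlapped. The difference between zfCTT and no_transgene was 1.0 ± 0.24 (adjusted p 0.130), that from mSTING 0.72 ± 0.24 (adjusted p 0.416) and that from dCTT 0.66 ± 0.24 (adjusted p 0.322). Over exon length, 23.4% of Ebi3 overlaps Gm16712, which was at 2.54 to 5.14 RPKM and differed by 0.50 ± 0.19 between zfCTT and no_transgene (adjusted p 0.329).

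The balance of the IL-27 chains therefore differed between the groups as a description. The ratio of Il27 to Ebi3 RPKM was 0.0705 and 0.0941 in no_transgene, 0.216 and 0.0989 in mSTING, 0.0709 and 0.0655 in dCTT, and 0.824 and 0.817 in zfCTT. Ebi3 exceeded Il27 in all 8 libraries, and by least in the zfCTT pair. This ratio was not tested.

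**Figure D2:**
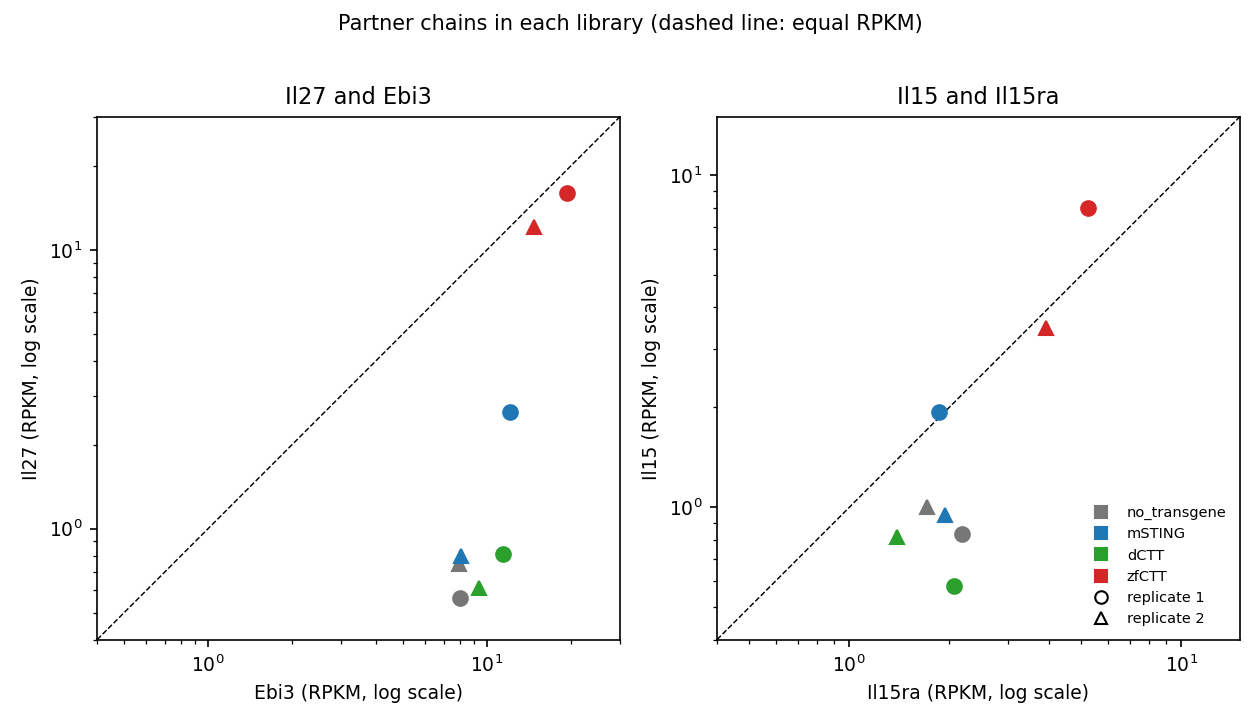
RPKM on log axes of Il27 against Ebi3 (left) and Il15 against Il15ra (right) in each of 8 libraries, coloured by group, with the dashed line at equal RPKM. The zfCTT libraries lie close to that line for Il27 and Ebi3, at ratios of 0.824 and 0.817, and the other 6 lie well under it, at 0.0655 to 0.216.

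Il15 (ENSMUSG00000031712; chromosome 8, 82331632 to 82403222, minus strand), a survival cytokine of NK and memory CD8 T cells, was at 0.829 and 1.0 RPKM in no_transgene, 1.93 and 0.948 in mSTING, 0.580 and 0.813 in dCTT, and 7.96 and 3.46 in zfCTT. Recovered reads were 52 to 385 per library. Both zfCTT libraries were above the other 6, with a mean of 5.71 ± 3.19 (SD, n = 2). The fold over no_transgene fell from 6.24 to 3.78 without zfCTT replicate 1. The difference from no_transgene was 1.72 ± 0.36 (95% interval 0.87 to 2.58, adjusted p 0.0893), from mSTING 1.40 ± 0.36 (adjusted p 0.344) and from dCTT 1.90 ± 0.36 (adjusted p 0.0718). By group mean the order was zfCTT, mSTING at 1.44, no_transgene at 0.915 and dCTT at 0.696 RPKM, with mSTING overlapping no_transgene and dCTT lower than no_transgene in both libraries.

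Il15ra (ENSMUSG00000023206; chromosome 2, 11705290 to 11734317, plus strand), the chain that presents IL-15, was at 2.18 and 1.71 RPKM in no_transgene, 1.86 and 1.95 in mSTING, 2.07 and 1.40 in dCTT, and 5.25 and 3.92 in zfCTT. The other 3 groups overlapped one another, and both zfCTT libraries were above all of them. The difference was 0.92 ± 0.20 from no_transgene (adjusted p 0.108), 0.93 ± 0.20 from mSTING (adjusted p 0.263) and 1.03 ± 0.20 from dCTT (adjusted p 0.0830). The ratio of Il15 to Il15ra RPKM was 1.52 and 0.883 in zfCTT and 0.280 to 1.04 in the other 6 libraries, where mSTING replicate 1 gave the 1.04, so the groups overlapped.

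Il6 (ENSMUSG00000025746; chromosome 5, 30013114 to 30019981, plus strand) was at 0.0446 and 0.00407 RPKM in no_transgene, 0.0187 and 0.00934 in mSTING, 0.0148 and 0 in dCTT, and 0.123 and 0.0237 in zfCTT. Il10 (ENSMUSG00000016529; chromosome 1, 131019845 to 131024974, plus strand) was at 0.0275 and 0.0377 RPKM in no_transgene, 0 and 0.0260 in mSTING, 0.0137 and 0.0134 in dCTT, and 0.114 and 0.0439 in zfCTT. Both rested on 0 to 6 reads per library, and in RPKM zfCTT overlapped no_transgene for Il6 but not for Il10. The Il10 reads, 3 and 2 in zfCTT and 1 and 5 in no_transgene, did overlap. Il6, Il10, Il23a and Il12a did not pass the filter on low values. With no filter the differences between zfCTT and no_transgene were 0.07 ± 0.05 for Il6 (adjusted p 0.644), 0.06 ± 0.03 for Il10 (adjusted p 0.576) and 0.06 ± 0.05 for Il23a (adjusted p 0.659), and no difference was detectable at this depth. Il12b stood at 205 reads in zfCTT replicate 1, where Il6 had 6 and Il10 had 3.

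Counted together, 5 of the 9 genes were tested. Against no_transgene, 2 of the 5 were higher in zfCTT and 3 did not pass, where 0.928% of all tested genes were called higher. All 5 had both zfCTT libraries above both no_transgene libraries, a pattern seen in 18.8% of tested genes. All 5 had an unadjusted p under 0.05, as 13.4% of tested genes did. The median difference was 1.72 for the 5 and -0.04 for all tested genes. Against mSTING, 1 of the 5 was higher and 4 did not pass, beside 0.111% called higher among all tested genes. Again all 5 had no overlap (24.9% of tested genes) and an unadjusted p under 0.05 (11.0%), and the medians were 1.40 and 0.01. Against dCTT, 2 were higher and 3 did not pass, beside 0.913% of tested genes. All 5 lay above dCTT without overlap (20.1%) and had an unadjusted p under 0.05 (12.7%), and the medians were 1.90 and -0.02. With protein-coding genes alone in the fit, Il15 and Il15ra passed as well over no_transgene and dCTT, and Il27 over mSTING. The 3 comparisons share the zfCTT libraries, and Il12b and Il27 met the filter only through zfCTT, so these counts and medians lean towards zfCTT and do not stand for all 9 genes. The summed level of the macrophage markers also differed between these groups, as given above, but single markers went both ways. In zfCTT, Fcgr1 was 3.66-fold and Adgre1 1.27-fold the level of no_transgene, while Cd14, Cd68, Csf1r, Itgam and Lyz2 were lower. None of these marker differences passed the threshold. Exons of Itgam overlap Gm49368 over 68.7% of their length, and those of Csf1r overlap Hmgxb3 over 15.1%. Reads in those stretches cannot be told apart here. The part of the macrophage markers in the differences of the 9 genes was not tested.

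**Figure D3:**
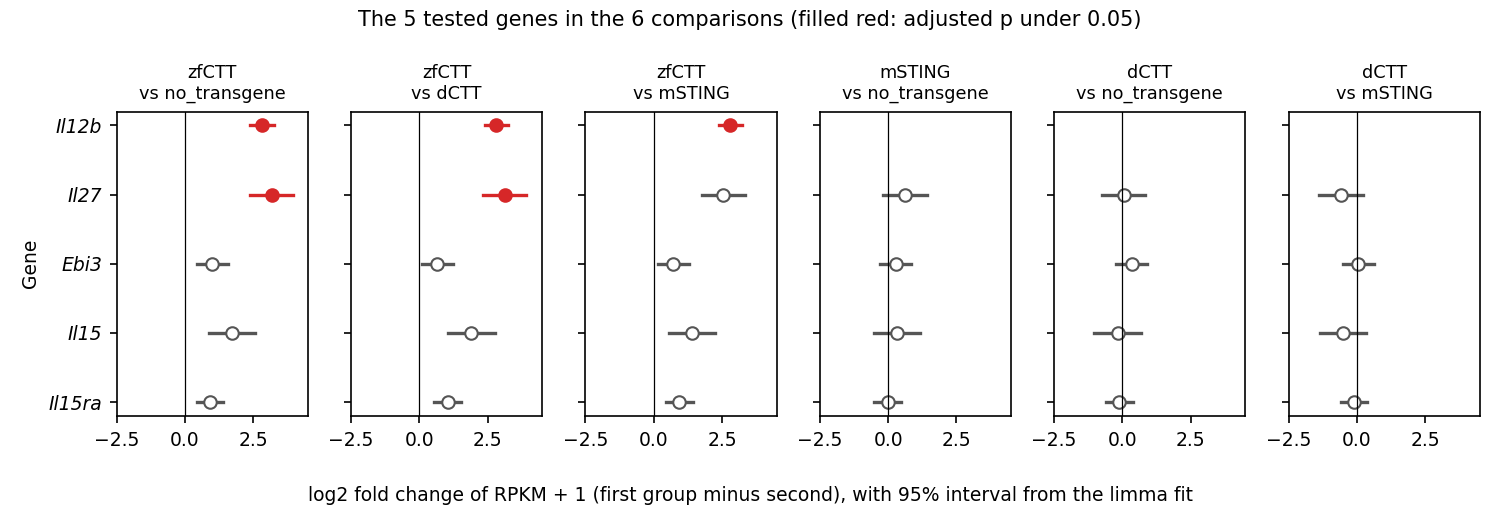
Log2 fold change of RPKM + 1 with its 95% interval for the 5 tested genes (rows) in the 6 comparisons (panels), with filled red points for adjusted p under 0.05. Il12b is past the threshold in all 3 zfCTT panels and Il27 in 2, and Il12b is left out where both groups are under 3 reads a library.

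Mouse STING and the tailless form were then compared with no_transgene and with each other, which left all 5 tested genes under the threshold. The limma fit called 0 of the 5 in each of these 3 comparisons, 0% of all tested genes were called in any of them, and 0 of the 5 had an unadjusted p under 0.05, where 467 of 13475 genes (3.47%) did for mSTING against no_transgene, 36 (0.267%) for dCTT against no_transgene and 336 (2.49%) for dCTT against mSTING. A limma-voom fit on recovered reads also called 0 of the 5. Over all genes, the counts in some of these comparisons depended on the setting. For mSTING against no_transgene 11 were called with a pseudocount of 0.1, 12 with no filter and 6 with protein-coding genes alone. For dCTT against mSTING these counts were 3, 14 and 6, and for dCTT against no_transgene they stayed at 0. For Il27, mSTING was 0.63 ± 0.33 above no_transgene, with a 95% interval of -0.17 to 1.42. Its log2 difference was 1.21 between the libraries numbered 1 and 0.04 between those numbered 2. Both mSTING libraries lay above both no_transgene libraries for Il27 and for Ebi3 (0.28 ± 0.24), a pattern seen in 15.3% of tested genes. The interval for Il15 was -0.53 to 1.17 and that for Il15ra -0.51 to 0.47.

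In dCTT, Il27 differed from no_transgene by 0.05, with a 95% interval of -0.75 to 0.84, and Il15 by -0.18, with an interval of -1.03 to 0.68. Ebi3 was 0.34 ± 0.24 higher in dCTT, above no_transgene in both libraries (7.75% of tested genes). Il15 was below no_transgene in both (6.69%). Both intervals include 0. Il12b and Il12a gave no fold in these 3 comparisons, since both groups were under 3 reads in each library.

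The genes that receive and transmit these cytokines were then read as 5 lists of 64 genes, 44 of them tested. In zfCTT against no_transgene 8 of the 44 rose and 0 fell, beside 0.928% and 0.156% of all tested genes. The other 36 did not pass, and the median was 0.46 beside -0.04 for all tested genes. Against dCTT 8 were higher and 0 lower, beside 0.913% and 0.171% of tested genes. Against mSTING 1 was higher (Il1rn, which met the filter only through zfCTT) and 0 lower, beside 0.111% and 0.00742%. In the 3 comparisons without zfCTT 0 were called. No call of these 8 over no_transgene remained when 1 library of no_transgene, dCTT or zfCTT was left out, since the count was then 0. The median of the 10 tested feedback and target genes was 1.62, that of the 8 kinases and STATs 0.46, that of the 19 transcription factors 0.42 and that of the 6 receptor chains -0.08. Il1rn and Cish are among the 8 called over no_transgene and over dCTT. These genes and Nfkbiz, which was not called, met the filter only through zfCTT. The counts and medians of the pathway genes therefore lean towards zfCTT.

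Of the receptor chains, 6 of 10 were tested and 0 passed in either direction. Il6ra, the IL-6 binding chain, was at 7.94 and 6.45 RPKM in no_transgene, 8.06 and 6.11 in mSTING, 6.62 and 6.31 in dCTT, and 4.08 and 4.40 in zfCTT. Its difference between zfCTT and no_transgene was -0.64 ± 0.18 (adjusted p 0.203). Il6st, the signalling chain that IL-6 and IL-27 share, differed by -0.17 ± 0.21 (adjusted p 0.778). Il10ra, the IL-10 binding chain, was at 9.88 and 3.99 RPKM in zfCTT and 4.28 and 2.62 in no_transgene, which overlap (0.75 ± 0.43, adjusted p 0.511). Il10rb differed by -0.50 ± 0.29 and Il2rg, the common gamma chain used by IL-15, by 0.15 ± 0.34. Il27ra, the IL-27 binding chain, was at 0.00848 to 0.0514 RPKM and Il12rb1, which binds the shared IL-12 and IL-23 chain, at 0.134 to 0.942 RPKM, and neither was tested. Il23r was at 0 in all 8 libraries.

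Of the receptor kinases and STATs, 8 of 9 were tested. Stat3, the main transducer of IL-6 and IL-10, differed between zfCTT and no_transgene by 0.91 ± 0.22 (adjusted p 0.139) and is named after its value was seen.

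Among the 10 tested feedback and target genes 5 rose and 5 did not pass, where 0.928% of all tested genes were called higher. Socs3, the brake on signalling through Il6st, was at 4.17 and 6.11 RPKM in no_transgene, 9.50 and 6.29 in mSTING, 3.80 and 6.62 in dCTT, and 40.0 and 35.3 in zfCTT. Its difference from no_transgene was 2.67 ± 0.30 (adjusted p 0.0204). Both zfCTT libraries were above all others, where 24.9% of tested genes had both above both of mSTING. The Socs3 difference from mSTING, 2.14 ± 0.30, did not pass (adjusted p 0.105). Pim1, a kinase gene induced by STAT signalling, went from 5.69 and 6.23 RPKM in no_transgene to 43.8 and 47.3 in zfCTT, by 2.74 ± 0.31 (adjusted p 0.0203), with mSTING at 21.4 and 10.7. Over mSTING the Pim1 difference, 1.52 ± 0.31, did not pass (adjusted p 0.221). Il1rn, which encodes the IL-1 receptor antagonist, was at 0.336 to 0.938 RPKM outside zfCTT and at 7.59 and 6.67 in zfCTT, 2.16 ± 0.21 over no_transgene (adjusted p 0.0196). The other risers, named after their values were seen, were Socs1 by 4.16 ± 0.53 (adjusted p 0.0291) and Cish by 1.25 ± 0.16 (adjusted p 0.0318). Both are feedback inhibitors of cytokine receptors. Socs1 was also at a mean of 5.75 ± 5.22 RPKM (SD, n = 2) in mSTING, against 0.287 in no_transgene (adjusted p 0.840). Its difference between zfCTT and mSTING, 2.02 ± 0.53, did not pass (adjusted p 0.35). Il1rn and Cish reached 1 RPKM in the zfCTT libraries alone, so they were tested only because they are high there, and they add no support to the count of 5. Most of these genes also answer to interferons and other cytokines, and which ligand acted was not tested.

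Of the 19 transcription factors known at these cytokine genes, 2 rose and 17 did not pass, where 0.928% of all tested genes were called higher. Irf1, which is known to act at Il12b, Il27 and Il15 promoters, was at 4.05 and 3.67 RPKM in no_transgene, 24.6 and 8.21 in mSTING, 4.60 and 4.02 in dCTT, and 108.9 and 74.3 in zfCTT. The difference from no_transgene was 4.23 ± 0.46 (adjusted p 0.0203). Both zfCTT libraries stood above all others, where 24.9% of tested genes had both above both of mSTING. The difference from mSTING, 2.57 ± 0.46, did not pass (adjusted p 0.173). Irf7, an interferon-induced factor, rose over no_transgene by 5.83 ± 0.86 (adjusted p 0.0438). It was at 0.115 and 0.181 RPKM in no_transgene and at 81.0 and 51.3 in zfCTT. The mSTING libraries were far apart for Irf7. Replicate 1, at 60.5 RPKM, lay between the zfCTT values, while replicate 2, at 6.61, lay below both. The Irf7 difference between zfCTT and mSTING did not pass (adjusted p 0.499). Exons of Irf1 overlap Gm17334 over 3.4% of their length and those of Irf7 overlap Phrf1 over 1.2%. Larger shares applied to Il2rg (30.5%, Gm20489), Il10rb (14.9%, Gm21970), Pim1 (14.5%, Gm26885) and Cish (7.5%, Gm17041). Reads in these shared stretches cannot be told apart here. Of the 15 other cytokines of the IL-6, IL-10 and common gamma chain groups, 1 was tested, Osm, with a difference of -0.18 (0 called).

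**Figure D4:**
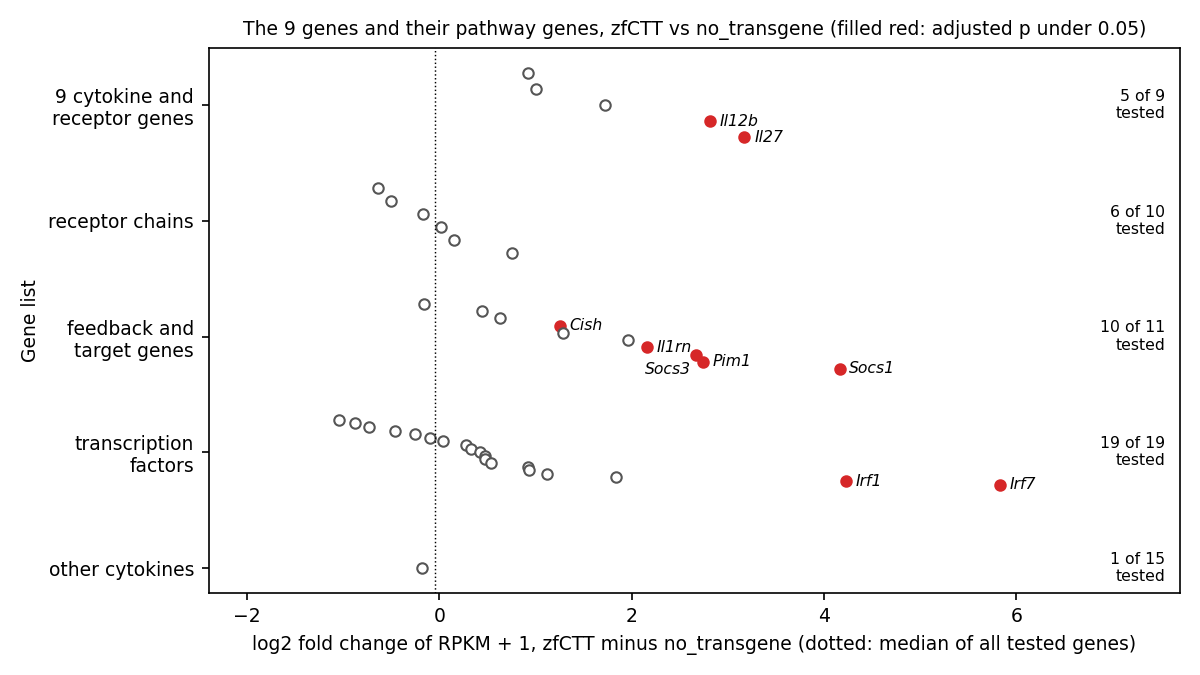
Log2 fold change of RPKM + 1 between zfCTT and no_transgene for the tested genes among the 9 cytokine and receptor genes and among 4 of the pathway lists (rows), with filled red points and names for adjusted p under 0.05 and a dotted line at the median of all tested genes, -0.04. Past the threshold are 5 of 10 feedback and target genes and 2 of 19 transcription factors, all to the right, and 0 of 6 receptor chains.

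Finally, the genes whose profile over the 8 libraries lay closest to those of Il12b and Il27 were listed by root mean square difference of centred log2(RPKM + 1), among 9448 tested protein-coding genes. For Il12b these were Ccl7 (0.20), a chemokine gene at 9.84 and 8.65 RPKM in zfCTT and 0.157 to 0.538 elsewhere, Cd274 (0.30), which encodes PD-L1, and Cdc42ep2 (0.30). For Il27 they were Gm17334 (0.24), Gm36079 (0.25) and Csf1 (0.29), the macrophage colony-stimulating factor gene at 12.7 and 7.17 RPKM in zfCTT, 2.22 and 1.04 in mSTING and 0.0578 to 0.249 elsewhere. Gm17334 shares 135 exon bases with Irf1 on the opposite strand, and reads there cannot be told apart without a strand setting. All 6 neighbours were picked for their likeness over the same 8 libraries, so their zfCTT pattern follows from the choice.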

How the data were processed

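Poly(A) RNA of 8 libraries in 4 groups was read from 1 table of RPKM, computed by the authors and deposited per gene for 53715 Ensembl identifiers. Per the submitters' processing notes, cutadapt 1.16 and HISAT2 2.1.0 were used with GRCm38 and mm10, whose roles are not stated. How reads were counted, on which annotation and with what strandedness, is not given in the sources used here. Groups came from the transgene label and replicate numbers from the titles. The 9 genes and the pathway and marker lists were chosen with earlier results of these data known.

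Values were transformed to log2(RPKM + 1) and fitted with limma (version 3.58.1, R 4.3.3; trended prior, two-sided) for the 13475 genes that reached 1 RPKM in 2 or more of 8 libraries. The fit held all 8 libraries and 4 group means (4 residual degrees of freedom), and p-values were adjusted by Benjamini-Hochberg within each of 6 contrasts at 0.05. The same fit was tested on simulated data.

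Reads were recovered by scaling RPKM with GENCODE exon lengths of GRCm38. Of nonzero values 94.9% to 95.5% came out within 0.05 of a whole number. Ebi3 did not, so no reads are given for it. Fold bounds for a group at 0 use 3 reads per library and cover counting error only. The pair of libraries in a group differed beyond counting error in 71.8% to 78.3% of genes with at least 100 reads, so they were not copies. Named pathway genes were up to 3 per list with the smallest adjusted p past 0.05 in zfCTT against no_transgene, plus 7 receptor chains. Promoter windows came from RefSeq (GRCm38.p6), with entries for 5 of 9 genes. Alternatives were pseudocounts of 0.1 and 0.5, other filters and scalings, limma-voom on recovered reads, protein-coding genes alone, the 2 groups of a contrast alone, a replicate block and each library left out. The values of 1 pathway gene and 1 marker gene are not reported here.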

Additional observations from a re-analysis of the deposited data

How the results depend on the processing

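The 9 genes gave 481 fold-change values under other settings, of which 426 kept direction and side of the threshold, 28 lost the call, 11 gained one and 16 changed sign, all in comparisons without zfCTT. All 267 values in comparisons with zfCTT were positive. The named pathway genes gave 204 values: 151 kept both, 52 lost the call and 1 changed sign. Where a count or sign changed, the cause was not tested, apart from fewer genes or libraries in the fit.

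Of the 9 genes, the 2 called over no_transgene became 1 with no filter, 0 at a mean RPKM of at least 5 (which drops Il12b, Il27, Il15 and Il15ra), 1 with voom, 4 with protein-coding genes alone, and 0 to 2 with 1 library left out. The 1 called over mSTING became 0 with a pseudocount of 0.1, at a mean of at least 5 or with 2 groups alone, 2 with protein-coding genes alone, and 0 to 1 with 1 library left out. The 2 called over dCTT became 1 with no filter, 0 at a mean of at least 5, 4 with protein-coding genes alone, and 0 to 2 with 1 library left out. Without no_transgene replicate 1 and dCTT replicate 1 together all 3 counts were 0.

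The pathway genes called in zfCTT over no_transgene, 8, became 1 with no filter, 5 at a mean of at least 5 or with voom, 13 with protein-coding genes alone, 4 with 2 groups alone, and 0 to 9 with 1 library left out. The 8 over dCTT became 1, 5 (mean of at least 5), 13 and 5 (2 groups), and 0 to 8. The 1 over mSTING became 3 with protein-coding genes alone and 0 with a pseudocount of 0.1, no filter, a mean of at least 5, 2 groups alone or any library left out. With that pair of libraries out, all were 0. For mSTING against no_transgene and dCTT against mSTING the range was 0 to 1, the 1 without mSTING replicate 2.

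Over all genes, the 146 called in zfCTT against no_transgene became 34 with no filter, 64 at a mean of at least 5, 53 with voom, 354 with protein-coding genes alone, 34 with 2 groups alone, 0 with that pair out and 2 to 144 with 1 library out.

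With the replicate number as a replicate block, the 9 genes had 4 called over no_transgene, 2 over mSTING and 4 over dCTT, the pathway genes 11, 1 and 11, and all genes 432, 44 and 409. The deviations of same-numbered libraries correlated at 0.03 to 0.76 between groups. The 2 of 6 pairs under 0.1 were mSTING with no_transgene (0.036) and mSTING with dCTT (0.032). The others were 0.26 for mSTING with zfCTT, 0.40 for dCTT with zfCTT, 0.43 for no_transgene with zfCTT and 0.76 for no_transgene with dCTT. The numbers were therefore not taken to pair the samples over all groups. Over no_transgene the block added Ebi3 (adjusted p 0.0446) and Il15ra (0.0458). Over mSTING it added Il27 (0.0422), and over dCTT Il15 and Il15ra (0.0371). It ended no call of the 9 genes.

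Signs changed for values near 0. Il15ra in mSTING over no_transgene, -0.02, became 0.056 when libraries were median-centred, 0.013 with TMM, 0.041 with voom, 0.098 with the pair out and -0.13 to 0.098 with 1 library out. Il27 in dCTT over no_transgene, 0.05, became -0.031 with voom, -0.12 with the pair out and -0.037 to 0.13 with 1 out. Ebi3 in dCTT over mSTING, 0.05, became -0.0057 when median-centred, -0.079 with the pair out and -0.21 to 0.32 with 1 out. With 1 out, Il15ra in dCTT ranged from -0.29 to 0.062 over no_transgene and -0.28 to 0.079 over mSTING, and Il2rg in zfCTT over no_transgene from -0.19 to 0.49.

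With 1 library left out, the lone library of its group is assumed to vary like the others. Depth limits Il6, Il10, Il23a and Il12a, which had 0 to 24 reads per library.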
